A study of Mus musculus with 2 samples.

Results

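The imprinted Dlk1-Dio3 locus of the mouse carries a large cluster of miRNA genes, and 110 of the 1881 mouse miRNAs on the array were assigned to it by name. The naming rule used no measured value, although the cluster itself was picked with earlier results of these data known. Of these miRNAs, 109 lay between Dlk1 and Dio3 on chromosome 12 in the RefSeq gene table of assembly GRCm38.p6, while miR-496b had no gene there. They came from 56 hairpins and were read by 288 probes, with 1 to 4 probes per miRNA. A further 7 miRNAs on the array had genes in the locus but names outside the list.

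The RNA came from serum exosomes, small vesicles shed by cells, of tumour-bearing mice. Lewis lung carcinoma (LLC) is a lung tumour line of the C57BL/6 strain, and the cells used here carried firefly luciferase. Female C57BL/6 mice, 6 weeks old by the study's methods, were injected under the skin with LLC cells alone (the LLC group) or together with mouse bone marrow mesenchymal stem cells, mBMSCs (the MSC+LLC group). Blood was taken when tumours averaged 200 mm3. The labels call the material serum and the study's text calls it plasma. Each group was 1 array, both on the same slide and in the same scan, and how many mice stood behind an array was not given in the sources used here. There is therefore no replicate, no test and no p-value: each ratio below compares 2 arrays, and the SD over the spots of a probe is technical. The labels name the injected cells as the source, but serum vesicles come from all organs of the host. All 5 erythroid miRNAs on a comparison list were detected on both arrays.

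At this locus the protein-coding genes Dlk1, Rtl1 and Dio3 are expressed from the paternal chromosome, whereas the long noncoding RNAs Meg3, Rian and Mirg and the miRNAs are expressed from the maternal one. Several of the miRNAs lie in a transcript antisense to Rtl1 and direct the cleavage of Rtl1 mRNA, so they restrain a paternally expressed gene in the placenta. The miRNAs of the locus are known for high expression in the embryo, the placenta and the adult brain and for low expression in most other adult tissues.

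The mature sequences of the members that the results turn on are shown first, because their seeds, the bases that pair with target mRNAs, and their base content are taken up below. They are RefSeq sequences from the GRCm38.p6 table, written 5′ to 3′ in lower case with the seed (bases 2 to 8) in capitals. The first set holds the members detected on both arrays:
miR-494-3p: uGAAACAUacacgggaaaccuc
miR-3072-5p: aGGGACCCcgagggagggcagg
miR-370-3p: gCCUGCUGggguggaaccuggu

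The second set holds the arms of the miR-1188 hairpin, whose 3p arm passed detection for MSC+LLC alone and whose 5p arm for LLC alone, and the brightest of the members seen with LLC alone:
miR-1188-3p: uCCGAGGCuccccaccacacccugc
miR-1188-5p: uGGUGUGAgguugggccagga
miR-134-5p: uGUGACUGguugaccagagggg

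A last set holds members of the locus that are near copies of each other. In the first pair both were detected on the LLC array, and in the other pairs only the first named was:
miR-3070-3p: uGGUGCUAccgucagggguaga
miR-3070-2-3p: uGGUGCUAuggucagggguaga
miR-376a-3p: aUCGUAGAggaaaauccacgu
miR-376b-3p: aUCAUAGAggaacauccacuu
miR-300-3p: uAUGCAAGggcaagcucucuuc
miR-381-3p: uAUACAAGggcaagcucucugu

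The first question was how much of the cluster could be seen in serum exosomes at all. The scanner software marks each spot that is well above background. A probe counted as detected if such spots made up over 50% of those kept, and a miRNA if any of its probes did. On the LLC array 18 of the 110 members were detected (16.4%), against 26.7% of all 1881 miRNAs. On the MSC+LLC array 4 members were detected (3.64%), against 13.7% of all miRNAs. On each array the share of the cluster was thus below that of the array as a whole. miR-494-3p, miR-3072-5p and miR-370-3p were detected on both arrays, 15 members on the LLC array only, miR-1188-3p on the MSC+LLC array only and 91 (82.7%) on neither.

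The 91 members without detection were read by 241 probes, and none of these probes had a single spot well above background on either array. Among all miRNAs detected on neither array, 98 of 3240 probes (3.02%) had at least 1 such spot. Signals are given in the intensity units of the scanner software after its background subtraction, so a probe without signal scatters around a low value and can fall below 0. The signals of the undetected members ran from -6.85 to 10.67 on the LLC array (median -1.56) and from -5.67 to 9.14 on the MSC+LLC array (median -1.10). Negative control spots read 2.09 ± 3.82 (SD, n = 986 spots) and 3.70 ± 3.43 (SD, n = 965 spots) on the same arrays. The undetected member nearest to the limit was miR-382-3p on the LLC array, at 10.67 ± 4.96 (SD, 15 spots), and miR-485-3p on the MSC+LLC array, at 9.14 ± 2.41 (SD, 7 spots). The lowest detected probe of any miRNA stood at 20.9 units (LLC) and 18.8 units (MSC+LLC). No depth can be given for an array, and a member below these limits was not detectable rather than shown to be absent.

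Widely studied members of the cluster were among those not detected. They were picked for naming after their values were seen. miR-127-3p, which is fully complementary to Rtl1, read -1.07 ± 3.22 and 7.05 ± 2.87 on its LLC probes and 0.34 ± 2.56 and 1.89 ± 2.64 on its MSC+LLC probes (SD, 15 spots each). miR-379-5p, the first of the long downstream array of hairpins, read -0.27 ± 2.88 and -2.04 ± 2.68 on the LLC array and -0.38 ± 3.59 and 0.90 ± 3.07 on the MSC+LLC array (SD, 14 or 15 spots). miR-411-5p read -2.16 ± 1.69 and -2.75 ± 3.58 on the LLC array and 0.23 ± 3.59 and -1.28 ± 3.19 on the MSC+LLC array (SD, 13 or 15 spots). All of these lie within 2 SD of the mean of the negative control spots. That SD is over single spots, so it does not measure the spread of a probe's mean.

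**Figure D1:**
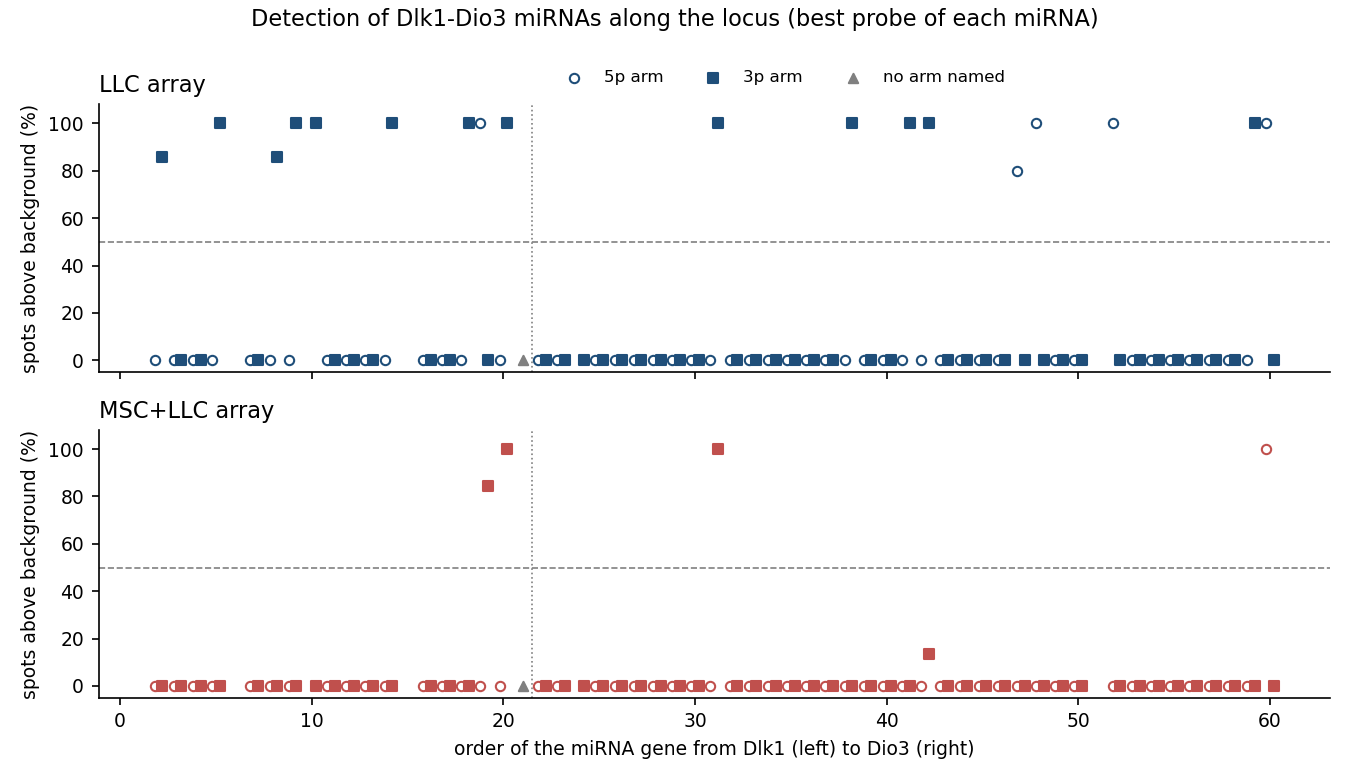
Share of spots well above background (%, best probe of each miRNA) against the order of the miRNA genes from Dlk1 to Dio3, for the 5p arms (open circles), the 3p arms (squares) and miR-882 (triangle) on the LLC array (top) and the MSC+LLC array (bottom). The dashed line is the 50% limit for detection and the dotted line marks miR-379; detected members lie along the whole locus on the LLC array, and 4 members pass the limit on the MSC+LLC array.

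The limits of the arrays differed once scale is taken into account. Taken over probes that passed detection on each array, the 75th percentile of signal was 2883 units for LLC and 250.2 for MSC+LLC, an 11.52-fold gap in brightness. Ratios below are between signals divided by this percentile unless they are called unscaled. A probe of equal scaled level therefore needed 216.5 units on the LLC array to reach the lowest detected probe of the MSC+LLC array. Over the whole array, 216 of the 502 miRNAs detected for LLC had a probe above that level, and 89.8% of these were detected on the MSC+LLC array, compared with 46 of the 286 others (16.1%). Of the 18 members detected on the LLC array, 4 had a probe above that level and 3 of these were detected on the MSC+LLC array, while none of the 14 others was. The exception was miR-134-5p. For those 14 members, detection on the LLC array only cannot be told apart from the lower brightness of the MSC+LLC array. The level of 216.5 units, and so the count of 14, rests on this scaling. Unscaled, with the gap in brightness left in, the 14 were at least 1.40-fold (miR-382-5p) to 5.38-fold (miR-300-3p) lower for MSC+LLC.

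In the order of the chromosome, the Meg3 end comes first. miR-770-3p, in Meg3, was detected on the LLC array by 1 of its 4 probes, at 28.6 ± 5.36 (SD, 7 spots), and that probe read 0.72 ± 2.46 (SD, 7 spots) in the MSC+LLC sample. The remaining LLC probes read 7.40, 8.72 and 15.2, none of them detected.

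The Rtl1-antisense group held 5 detected members, all of them 3p arms and all on the LLC array only. miR-434-3p was the brightest of them, with LLC probes at 56.5 ± 5.56 (SD, 13 spots) and 15.4 ± 4.19 (SD, 14 spots), the second of which was not detected. The same probes read 12.1 ± 3.52 and 2.46 ± 1.31 on the MSC+LLC array. The miR-3070 copies followed, which lie next to each other in the locus. miR-3070-3p had LLC probes at 43.5 ± 5.95 and 18.1 ± 4.53 (SD, 15 spots each), again with only the brighter one detected. miR-3070-2-3p was detected by all 3 of its LLC probes, at 27.4 ± 5.24, 31.3 ± 2.22 and 28.1 ± 2.93 (SD, 9 or 10 spots). On the MSC+LLC array the probes of both copies lay between -2.57 and 2.92. These miRNAs share the seed GGUGCUA and differ by C9U and C10G (miR-3070-3p first, positions from the 5′ end), and whether a probe for one also binds the other was not tested. miR-337-3p reached 29.4 ± 5.65 (SD, 14 spots) on 1 of 2 LLC probes and 3.77 ± 3.21 (SD, 15 spots) on that probe of the MSC+LLC array. miR-665-3p reached 27.0 ± 5.13 (SD, 7 spots) on 1 of 4 LLC probes and 1.94 ± 4.57 (SD, 7 spots) on the MSC+LLC array. The LLC signals of miR-337-3p, miR-665-3p and miR-3070-2-3p were thus close to the lowest detected probe of that array, at 20.9.

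The Rian group held members on either side. miR-341-3p was detected by both LLC probes, at 31.97 ± 2.47 and 42.0 ± 6.39 (SD, 14 spots each), and read 1.75 ± 4.13 and 5.35 ± 4.72 on the MSC+LLC array (SD, 15 spots each). miR-370-3p was detected by both of its probes on both arrays. Its LLC signals were 170 ± 27.8 (SD, 15 spots) and 260.4 ± 31.5 (SD, 14 spots), and its MSC+LLC signals were 55.7 ± 7.40 (SD, 15 spots) and 62.7 ± 6.71 (SD, 14 spots). Its unscaled signal was thus lower on the MSC+LLC array, but by less than the arrays differed in brightness.

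The miR-1188 hairpin, which lies just before miR-370, gave opposite calls for its arms. miR-1188-5p had LLC probes at 58.0 ± 4.74 (SD, 14 spots) and 65.8 ± 8.15 (SD, 15 spots), with all spots well above background, and MSC+LLC probes at -0.07 ± 2.58 and -0.18 ± 2.93 (SD, 15 spots each). miR-1188-3p had LLC probes at 6.65 ± 1.77 and 15.2 ± 4.11 (SD, 14 spots each), with no spot well above background, and MSC+LLC probes at 15.4 ± 4.46 (SD, 15 spots) and 24.1 ± 3.98 (SD, 13 spots). The last of these had 84.6% of its spots well above background and was the only detected one, close to the lowest detected probe of that array. Even unscaled, both miR-1188-3p probes were brighter for MSC+LLC than for LLC. Of the 31 member probes detected on at least 1 array, the detected miR-1188-3p probe was the only one whose unscaled signal was higher for MSC+LLC, against 77 of 1001 such probes (7.69%) over all miRNAs. This count largely restates the detection calls: 24 of the 31 probes were detected for LLC alone, and the miR-1188-3p probe for MSC+LLC alone. As a bound from the detected probe, miR-1188-3p was at least 13.3-fold higher on the MSC+LLC array after scaling and at least 1.15-fold higher unscaled. The size of this bound thus rests on the scaling. The scanner software's gene-level call and the deposited table count it as detected on the LLC array as well, so that the call of a member seen with MSC+LLC alone rests on the spot rule used here. For miR-1188-5p no bound above 1 could be given after scaling, and unscaled it was at least 3.29-fold lower on the MSC+LLC array.

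From miR-379 onward the members form a long run of hairpins in and before Mirg. miR-494-3p was the brightest member on both arrays. Its LLC probes read 3044 ± 229 (SD, 14 spots) and 1133 ± 147 (SD, 15 spots), and its MSC+LLC probes read 244.9 ± 15.1 (SD, 14 spots) and 96.4 ± 7.20 (SD, 15 spots). By mean signal it ranked 62 of 502 detected miRNAs on the LLC array and 63 of 258 on the MSC+LLC array. Probes of different sequence are not on one scale, so such a rank orders brightness and not abundance.

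miR-3072-5p, the last detected member before Dio3, read 553 ± 23.8 and 926 ± 39.5 on the LLC array (SD, 15 spots each). On the MSC+LLC array it read 29.3 ± 4.77 (SD, 14 spots) and 58.8 ± 5.65 (SD, 15 spots). Its brightness rank was 101 of 502 on the LLC array and 151 of 258 on the MSC+LLC array, whereas miR-370-3p ranked below it on the LLC array and above it, at 121 of 258, on the MSC+LLC array.

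miR-134-5p, known for limiting Limk1 translation in dendritic spines, was the member with a bright LLC signal and none on the other array. Its 4 LLC probes read 90.3 ± 9.32, 282 ± 26.2, 378.97 ± 10.3 and 308 ± 23.3 (SD, 6 to 8 spots), with every spot well above background. The same probes read -0.29 ± 1.78, 4.04 ± 4.18, 7.23 ± 4.01 and 6.80 ± 2.67 on the MSC+LLC array (SD, 6 to 8 spots), with no spot well above background. At equal scaled level the 3 brighter probes would have read 24.5, 32.9 and 26.7 there, above the lowest detected probe of that array, and the dimmest 7.84. Against that limit miR-134-5p was at least 1.079-fold lower on the MSC+LLC array over its 4 probes, of which 3 had a bound above 1, and at least 1.75-fold lower on the probe with the highest bound. Unscaled, it was at least 12.4-fold lower, so the size of the bound rests on the scaling. With detection at more than 80% of spots, no bound above 1 was left for the mean of the probes.

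The other members of this run were detected on the LLC array only and were dimmer. miR-300-3p had LLC probes at 101 ± 9.33 (SD, 14 spots) and 12.5 ± 4.66 (SD, 15 spots), the second undetected, and the brighter one read 13.8 ± 4.40 (SD, 15 spots) on the MSC+LLC array. It was the only member of the LLC-only group with any MSC+LLC spot well above background, at 13.3% of the spots of that probe, and the scanner software's gene-level call counts it as detected on both arrays. miR-154-5p was detected by both LLC probes, at 24.0 ± 3.98 (SD, 14 spots) and 47.6 ± 5.73 (SD, 15 spots). miR-410-3p was also detected by both, at 32.6 ± 5.52 and 34.4 ± 4.25 (SD, 15 spots each). By contrast, miR-376a-3p had 1 of 2 LLC probes detected, at 47.7 ± 5.73 (SD, 15 spots), and miR-376c-3p had 1 of 4, at 33.0 ± 6.12 (SD, 7 spots). miR-382-5p was the lowest detected member of the LLC array by its brightest probe, at 26.3 ± 3.28 (SD, 15 spots). On the MSC+LLC array all probes of these members other than miR-300-3p read 7.57 units or less.

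**Figure D2:**
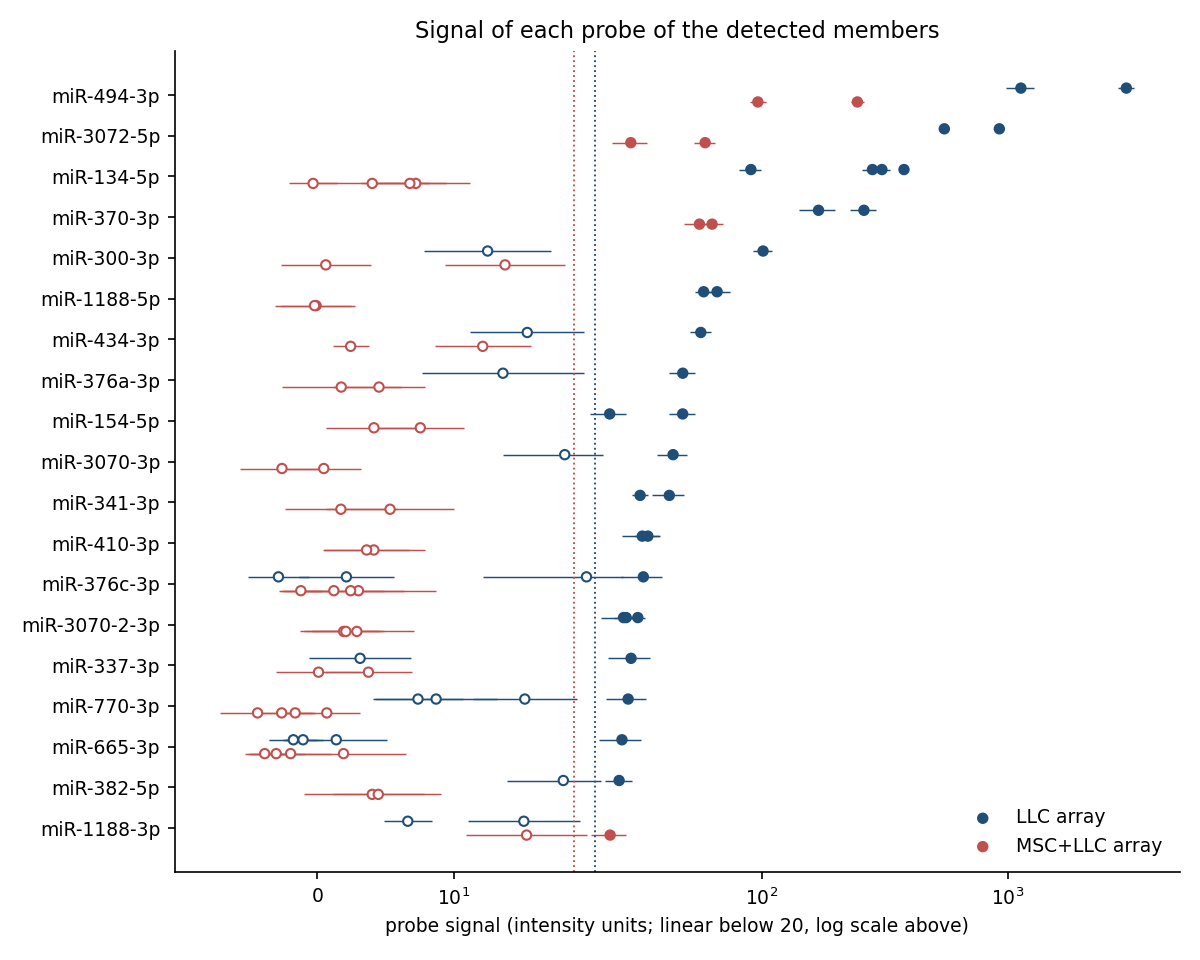
Signal of every probe of the 19 detected members on the LLC array (blue) and the MSC+LLC array (red), in intensity units on an axis that is linear below 20 and logarithmic above, with the SD over spots as bars. Filled points were detected, and dotted lines mark the lowest detected probe of each array; all MSC+LLC points of the 15 LLC-only members lie below the red line, whereas miR-1188-3p has its detected point on the MSC+LLC array.

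Over the 15 LLC-only members, the brightest LLC probe ran from 26.3 to 378.97 units, with 101 as the next highest after miR-134-5p. In 6 of them all probes were detected on the LLC array and in 9 some were not. On the MSC+LLC array their 39 probes read -4.35 to 13.8. Of the 24 probes detected on the LLC array, 13 read below the signal that an equal scaled level would give on the MSC+LLC array and 11 above it. At such low signals this split is a description of values below the lowest detected probe of that array and carries no direction.

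Levels could be compared on both arrays for 3 members. After scaling, miR-370-3p was 3.24-fold higher on the MSC+LLC array, with a log2 ratio of 1.69 (SD over spots 0.19) and probes at 1.92 and 1.47. Of the 240 miRNAs with a ratio, 195 lay below it. miR-494-3p had a log2 ratio of -0.07 (SD over spots 0.13), with probes at -0.11 and -0.03, and 95 of 240 lay below it. Its change was smaller than the spread over spots. miR-3072-5p had a log2 ratio of -0.58 (SD over spots 0.14), a fold of 0.67, with probes at -0.71 and -0.45, and 48 of 240 lay below it.

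By a 2-fold limit, 1 of the 3 members was higher on the MSC+LLC array, against 27.1% of the 240 miRNAs, and none was lower, against 11.2%. The median log2 ratio was -0.07 over the 3 members and 0.15 over the 240 miRNAs, whose quartiles were -0.45 and 1.18. With 3 members these shares say little about the cluster. The direction of miR-370-3p rested on the scaling: its log2 ratio was 0.48 when all probes set the 75th percentile, -0.52 when the labelling spike-ins set the scale and -1.83 unscaled. Its place among the 240 miRNAs was the same under these scalings, since each shifts all miRNAs by 1 amount. The log2 ratios of miR-3072-5p and miR-494-3p turned to 0.35 and 0.14 under normexp background correction with an added offset of 50. There the median over all miRNAs rose to 0.84. The offset is near the signals of miR-3072-5p on the MSC+LLC array, 29.3 and 58.8, and far below its LLC signals, 553 and 926. Normexp without the offset was not run.

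**Figure D3:**
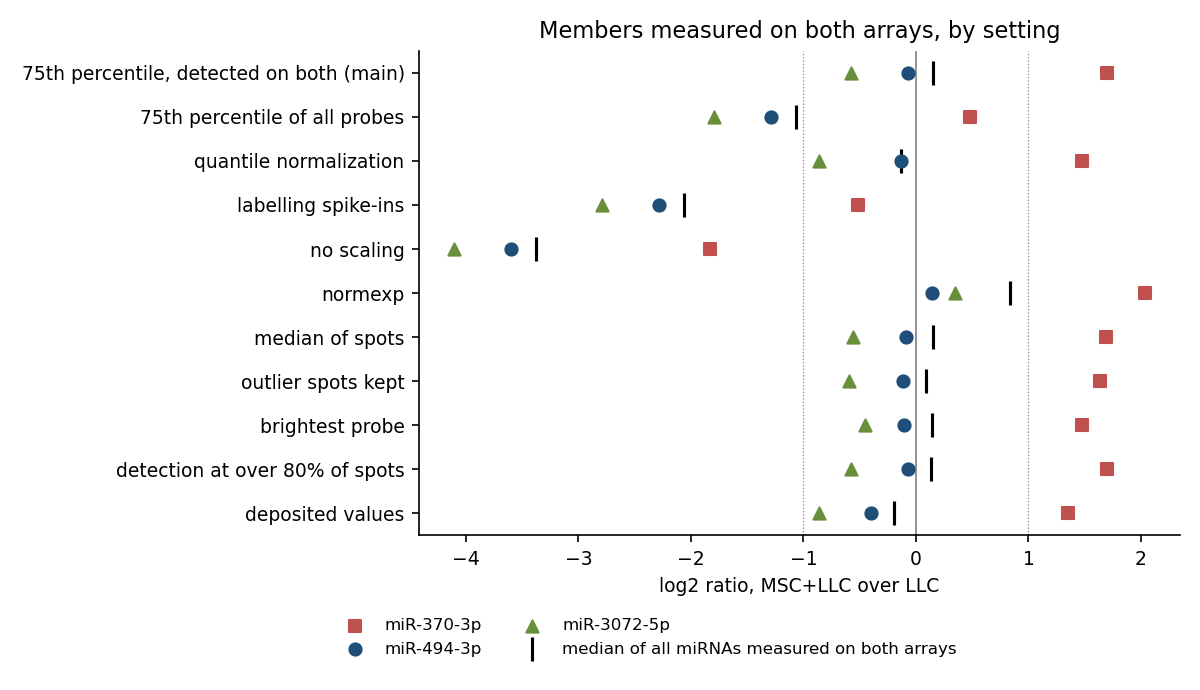
Log2 ratio of MSC+LLC over LLC for miR-370-3p (squares), miR-494-3p (circles) and miR-3072-5p (triangles) under each way of processing, with the median of all miRNAs measured on both arrays as black bars and dotted lines at 2-fold. miR-370-3p lies to the right of the black bar in each setting and the other members lie at it or to its left; all points shift by 1 amount under scaling by all probes, spike-ins or none, and by unequal amounts under quantile normalization and normexp.

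Detection was not spread evenly over arms and positions. On the LLC array 13 of 55 3p arms (23.6%) and 5 of 53 5p arms (9.43%) of the cluster were detected, whereas over all miRNAs the 5p arms were detected more often, at 31%, than the 3p arms, at 20.3%. Of the 53 hairpins with both arms on the array, 1 (miR-1188) had both arms detected on at least 1 array, 16 had 1 arm and 36 had neither. The hairpins of the other miRNAs were not counted in this way, so the split cannot be called particular to the cluster. Partner arms were silent even beside the brightest members. miR-494-5p read -2.90 and -3.45 on its LLC probes, miR-370-5p -3.63 and -2.98, miR-3072-3p -3.10 and -0.69, and miR-134-3p -1.997 and -2.67. All of these are below the mean of the negative control spots. The other undetected partner arms of detected members were miR-154-3p, miR-300-5p, miR-3070-5p, miR-337-5p, miR-341-5p, miR-376a-5p, miR-376c-5p, miR-382-3p, miR-410-5p, miR-434-5p, miR-665-5p and miR-770-5p. Over all 16 such arms, the 40 probes read -5.06 to 10.67 for LLC and -5.67 to 2.99 for MSC+LLC.

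The part before miR-379 spans Meg3, the Rtl1 antisense transcript and Rian, and also miR-882, which lay in none of these and was not detected. Of its 34 members, 9 (26.5%) were detected for LLC and 2 (5.88%) for MSC+LLC. From miR-379 onward, these counts were 9 of 75 (12%) and 2 (2.67%). On the LLC array the upstream share was thus about that of all miRNAs (26.7%) and the downstream share was below it. On the MSC+LLC array both shares were below that of all miRNAs (13.7%). No test was run, since members of a cluster are not replicates. Of the 7 miRNAs with genes in the locus but names outside the list, miR-1906 was detected on the LLC array, at 151 units against 12.0 on the MSC+LLC array, and so was miR-432, at 23.7 against 2.43. None of the 7 was detected on the MSC+LLC array.

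The near copies within the locus were compared next. Of the 106 members with a RefSeq mature sequence, 16 shared a seed with another member, in 8 groups. Among the 18 detected members with a sequence, only the miR-3070 copies did so. miR-410-3p shared its seed AUAUAAC with miR-344d-3p and miR-344e-3p, from outside the locus, and neither was detected. miR-376a-3p and miR-376b-3p differ by G4A, A13C and G20U, the first of which lies in the seed. The miR-376b-3p probes read -0.22 ± 4.10 (SD, 14 spots) and 7.94 ± 4.01 (SD, 15 spots) on the LLC array, neither of them detected, and the undetected miR-376a-3p probe read 13.6 ± 5.94 (SD, 14 spots). miR-300-3p and miR-381-3p differ by G4A, U21G and C22U, again with the first in the seed. The miR-381-3p probes read -3.13 ± 2.93 and 9.22 ± 3.16 on the LLC array (SD, 15 spots each), again undetected. In both pairs 1 copy passed the limit and the other did not, but each copy has probes of its own and their levels were not set against each other as amounts.

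The detected members were richer in G and C than the others. The median G+C content was 56.8% in the 18 detected members with a sequence and 47.7% in the 88 undetected ones, and the medians for G alone were 38.0% and 25.5%. Among the other miRNAs of the array with a sequence, the medians of G+C were 54.5% in 401 detected and 52.2% in 1101 undetected miRNAs, and those of G were 33.3% and 23.8%. Of the members with at least 50% G+C, 13 of 55 (23.6%) were detected, against 5 of 51 (9.80%) with less. The same shares were 28.6% and 23.5% over the other miRNAs. The ranges overlapped widely: miR-410-3p was detected at 38.1% G+C and miR-341-5p was not at 76.2%. Whether base content sets which members a probe can report was not tested.

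**Figure D4:**
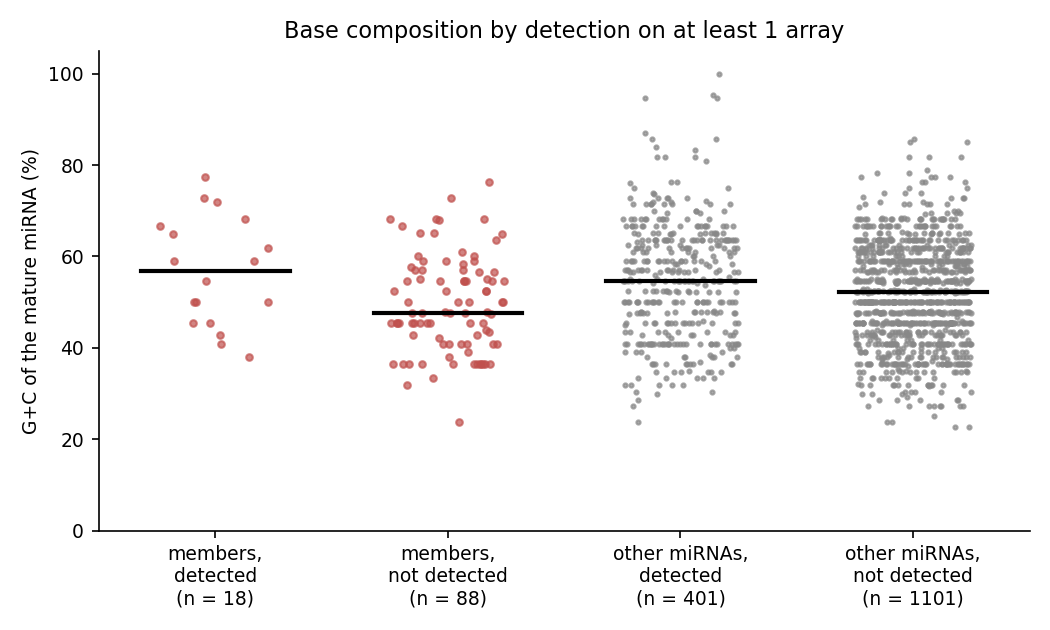
G+C content (%) of mature miRNAs that were or were not detected on at least 1 array, for the cluster members (red) and all other miRNAs on the array with a RefSeq sequence (grey), with 1 point per miRNA and the median as a black bar. The medians are 56.8% and 47.7% in the cluster and 54.5% and 52.2% elsewhere, and the ranges overlap.

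Other imprinted loci gave a second comparison. Of 10 miRNAs from H19, Igf2, Mest and Nespas, 4 (40%) were detected for LLC and 3 (30%) for MSC+LLC. miR-483-5p, in Igf2, read 700.4 units on its brightest LLC probe and 51.4 on the MSC+LLC array, a log2 ratio of -0.41. miR-296-5p read 414 and 89.2, a log2 ratio of 1.21. miR-483-3p read 41.0 and 37.2, a log2 ratio of 3.33, while miR-335-5p passed detection for LLC alone, at 70.3 against 5.63. The median log2 ratio of the 3 measured on both arrays was 1.21. After the main scaling their log2 ratios lay on both sides of 0, as did those of the Dlk1-Dio3 members. These signs rest on the scaling: unscaled, each of these miRNAs read lower on the MSC+LLC array.

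Lists of miRNAs typical of cells that could feed serum exosomes were set beside the cluster. Detection on the LLC and MSC+LLC arrays was 7 and 5 of 8 for platelets and leukocytes, 4 and 3 of 7 for skeletal muscle, 3 and 2 of 7 for hepatocytes and 4 and 2 of 8 for mesenchymal stromal cells. For the mesenchymal list, the cells that the groups differ by, miR-199a-3p read 686 and 85.1 units and miR-214-3p read 419 and 64.4, with log2 ratios of 0.57 and 0.82. miR-143-3p and miR-214-5p passed detection for LLC alone, at 159 against 11.54 and 44.5 against 10.6 units. Both LLC signals were below the 216.5 units given above, so these calls cannot be told apart from the lower brightness of the MSC+LLC array. The other miRNAs of this list were detected on neither array. The median log2 ratio was 0.70 over the 2 mesenchymal miRNAs measured on both arrays, 1.07 for skeletal muscle and 0.23 for hepatocytes. It was 0.07 for the erythroid list and -0.51 for platelets and leukocytes. Each median rests on 2 to 5 miRNAs and 1 array per group, and which cells fed these signals was not tested. The signs rest on the scaling too: unscaled, each listed miRNA with a ratio read lower on the MSC+LLC array. Members of a list went different ways. Erythroid log2 ratios ran from -2.33 (miR-144-3p) to 1.66 (miR-486a-5p), with miR-451a, the brightest of them, at 1.06. Those of platelets and leukocytes ran from -2.25 (miR-142a-3p) to 0.14 (miR-223-3p). Every list had a higher share detected on each array than the Dlk1-Dio3 cluster, where all miRNAs stood at 26.7% (LLC) and 13.7% (MSC+LLC). The lists hold 5 to 8 miRNAs each and were chosen with earlier results of these data known. Their higher shares therefore say nothing about the cluster. In whole serum, fewer vesicles from a cell type and less of a miRNA per vesicle cannot be told apart.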

How the data were processed

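Serum exosomal RNA of 1 LLC and 1 MSC+LLC sample (100 ng per array) was hybridised to Agilent 1-colour mouse miRNA arrays. Groups came from the sample titles. The authors ran Feature Extraction, version 11.5.1.1 per the file headers and 10.7 per the submitters' processing notes. The deposited scanner files hold linear intensity after background subtraction, not yet scaled between arrays. The deposited table of the series holds log2 values that the authors made with GeneSpring GX 11.0, with 0.1 for undetected miRNAs before the log, and it served as an alternative only.

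Members were taken by miRNA name. The members and the comparison lists were chosen with earlier results of these data known. Control spots and outlier spots (3.09% and 3.36% of the members' 3300 spots per array) were left out. The kept spots of a probe (4 to 30) were averaged, and detection needed more than 50% of spots well above background. Each array's signals were divided by their 75th percentile over the probes with detection on both. Log2 ratios were averaged over the probes of a miRNA detected on both arrays. A bound compared the detected signal with the other array's signal or its lowest detected probe, whichever was higher. No test was possible with 1 array per group, and the number of arrays limits the precision.

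Every detected member was named, with its undetected partner arm where the text turns on it, the members nearest the limits and up to 5 miRNAs per comparison list. Alternatives were the scanner's gene detection call, detection at more than 80% of spots, outlier spots kept, medians of spots, the brightest probe, other scalings (all probes, quantile, labelling spike-ins, none), normexp with an offset of 50 on the median signal, fold limits of 1.5 and 4, members by position, and the deposited values. Functions were tested on simulated data. RefSeq tables of GRCm38.p6 gave gene order, and sequences for 106 of 110 members (none for miR-376c-3p, miR-485-5p, miR-487b-3p and miR-539-3p). The headers name another build, so no coordinates are given. Probe sequences were not used here. Python 3.11.15, numpy 2.4.6, pandas 2.3.3, matplotlib 3.10.9, R 4.3.3 and limma 3.58.1 were used.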

Additional observations from a re-analysis of the deposited data

How the results depend on the processing

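No paired analysis was possible because there was only 1 array in each group. The counts of members detected for LLC, for MSC+LLC, for LLC alone and on neither array stayed within 1.5 times their values under each detection setting run. The scanner's gene detection call and the deposited values each put 5 members on both arrays instead of 3 and 0 on the MSC+LLC array only instead of 1, since both also count miR-1188-3p for LLC and miR-300-3p for MSC+LLC. Taking members by position gave 20 for LLC and 4 for MSC+LLC. When all probes set the 75th percentile, 0 of the 3 members with a ratio were 2-fold higher and 2 were lower, with a median log2 ratio of -1.28. With labelling spike-ins the counts were 0 and 2 and the median -2.28, and with no scaling 0 and 3 and -3.60. The sign of miR-370-3p reversed to -0.52 with spike-ins and to -1.83 with no scaling. By construction these scalings add 1 constant to all ratios. The median was 0.35 with normexp. The deposited values gave 2 members higher and a median of 0.33 over 5 members. At a fold limit of 4, 0 were higher. The bound of miR-1188-3p was 11.4-fold with detection at more than 80% of spots. The cause of the other shifts was not tested. Low signal on the MSC+LLC array limits what can be called lower there.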
